A study of Gallus gallus with 12 samples.

Results

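Primordial germ cells (PGC) of the embryonic gonad and dissociated cells of the blastoderm in freshly laid eggs were set against 2 somatic groups, cultured chicken embryonic fibroblasts (CEF) and gonadal stromal cells (GSC). All 12 arrays of the study entered the comparison, 6 of PGC or blastoderm and 6 of CEF or GSC. Of 13008 genes, 522 (4.01%) were higher in PGC and in blastoderm than in CEF and in GSC, and 448 (3.44%) were lower. SOX3, OTX2 and EPCAM led the first set, and AKR1B10, ITGA8 and CALD1 led the second. A gene counted only if each of the 4 comparisons between the sides passed an adjusted p of 0.05 in the same direction, and genes were ranked by the gap, which is the distance between the nearest group means of the opposite sides.

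The birds were White Leghorn, and each group held 3 samples that the labels describe as independent. PGC and GSC came from gonads of embryos of 6.5 days and both sexes, 100 embryos per sample, separated with magnetic beads, with 270000 PGC and 9000000 GSC per sample. CEF were grown to passage 2 from 5 embryos of 6.5 days per sample; the study design names the embryonic body as their source and the sample labels the muscular area. Blastoderm samples held 530000 cells from 5 eggs each, without a sort. PGC and GSC are thus 2 fractions of 1 organ, CEF are the only cells that were cultured, and blastoderm differs from the rest in age. With 2 cell types on each side, a gene that separates these 4 groups need not separate germ or pluripotent cells from somatic cells in general.

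Primordial germ cells are the embryonic precursors of sperm and eggs. In birds they are set aside early, travel through the blood to the gonad and keep factors of the undifferentiated state. The blastoderm at laying is an epithelial sheet whose cells can still form every tissue. Fibroblasts and stromal cells are mesenchymal: they secrete collagen-rich matrix, attach to it through integrins and pull on it with actomyosin fibres.

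Levels are on the log2 scale as the authors deposited them, from 1.02 to 13.18, and values near the top may be compressed. Background was set at 3.61, which 99 percent of the values for viral and reporter probe sets did not exceed. Array medians lay between 3.45 and 3.60. Across 37693 probe sets of the same array design, the median correlation was 0.941 between PGC and GSC arrays, 0.891 between PGC and blastoderm, 0.895 between CEF and GSC and 0.850 between blastoderm and CEF, against at least 0.972 within a group. PGC were thus closest to GSC, a group of the opposite side. As a measure of RNA quality, the 3′ signal less the 5′ signal of control probe sets for actin and GAPDH ran from 0.07 to 0.35 in PGC, 0.37 to 0.82 in blastoderm, 0.02 to 0.67 in CEF and -0.09 to 0.05 in GSC. Poly-A spike-in means ran from 7.15 to 7.71 in PGC and 6.20 to 7.17 in CEF, but from 4.27 to 5.87 in blastoderm and 4.36 to 5.76 in GSC, so that each side held a high and a low group. The part of these measures in the results was not tested.

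The labels were checked with genes known to mark each cell type. DDX4, DAZL and DND1, RNA-binding proteins of germ cells, averaged 10.06, 10.81 and 8.75 in PGC. DDX4 and DAZL were also above background in GSC and blastoderm, with values given below. ASTL, CCNA1 and WNT3A were at 10.23, 9.75 and 8.65 in blastoderm, while all 3 lay within background in the other groups. THY1 was at 9.06 in CEF and within background elsewhere. COL1A1 and COL1A2, also set as CEF genes, were highest in CEF but well above background in GSC and PGC too, with values given below. The gonadal genes LHX9, NR5A1 and AMH were at 8.37, 8.13 and 12.20 in GSC. They were also measurable in PGC, and highest on PGC replicate 3, where LHX9 stood at 6.95, NR5A1 at 7.46 and AMH at 12.17. The gonadal somatic list, of which 27 of 32 genes were measured, had a summed level between 12.09 and 13.33 on the PGC arrays and 13.42 to 13.78 in GSC, against 10.09 to 10.57 in blastoderm and 11.18 to 11.46 in CEF (log2 of the summed linear values), and 4 of its 27 genes lay within background in PGC.

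PGC replicate 3 stood apart from the other PGC arrays in both gene sets. Over the 522 higher genes its median level was 6.92, against 7.55 and 7.38 in PGC replicates 1 and 2, and over the 448 lower genes it was 6.36, against 5.60 and 5.77. Without this array the counts were 749 higher and 610 lower genes, and without PGC replicate 1 they were 380 and 282. The fits without PGC replicate 3 shared 515 of the 522 and 435 of the 448 genes with the fit of all arrays. In such bulk RNA, fewer cells of a type and less RNA per cell cannot be told apart.

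The higher genes were separated more widely at the top than the lower genes. Their largest gap was 5.04 on the log2 scale and 36 of 522 reached 2, whereas the largest gap of the lower genes was 2.41 and 5 of 448 reached 2. The median gap was nearly the same, 0.88 and 0.92. Arrays did not overlap in 477 of the higher and 403 of the lower genes. Over all 13008 genes, the 6 PGC and blastoderm arrays lay above the 6 others in 761 (5.85%) and below them in 552 (4.24%). When the largest of the 4 p-values was adjusted instead, 248 higher and 231 lower genes remained, and with a minimum change of 2-fold in each comparison 191 and 194.

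**Figure D1:**
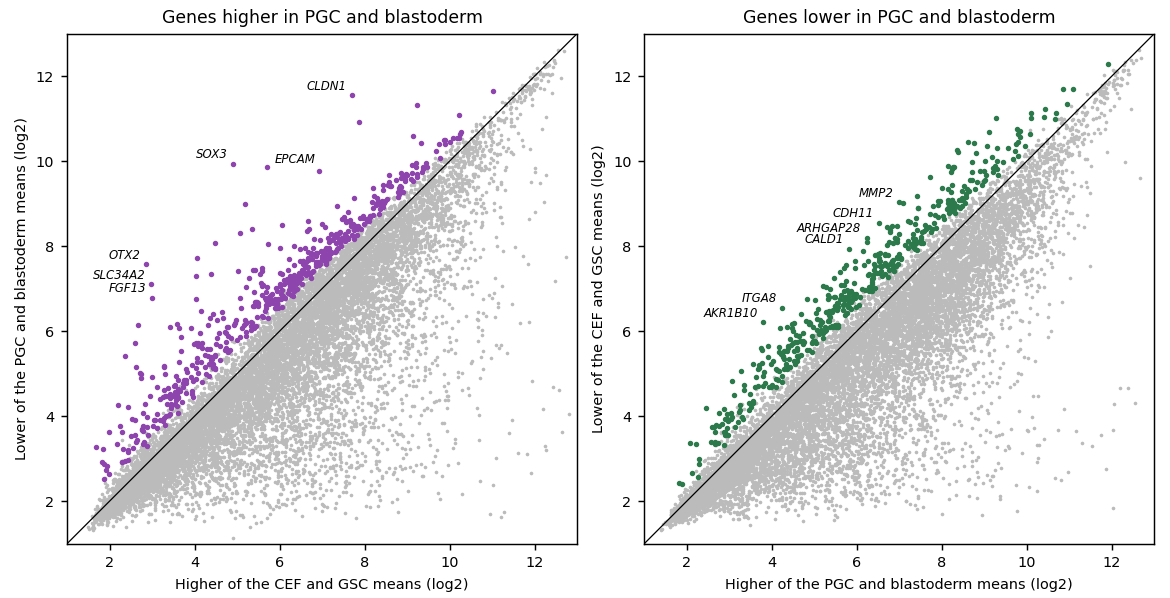
Each point is a gene. The left panel plots the lower of the PGC and blastoderm means against the higher of the CEF and GSC means, and the right panel plots the lower of the CEF and GSC means against the higher of the PGC and blastoderm means, all in log2. Coloured points are the 522 higher and 448 lower genes, grey points all others, and the distance above the diagonal is the gap; CLDN1, SOX3 and EPCAM stand farthest from the cloud at high levels.

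Single comparisons called far more genes than their intersection. PGC exceeded CEF in 27.7% of genes and fell below it in 22%, and PGC exceeded GSC in 16.8% and fell below it in 13.5%. Blastoderm was above CEF in 27.2% and below it in 24%, and above GSC in 25.4% and below it in 24.8%. The comparisons share groups, so their calls are not independent. PGC and GSC formed the nearest pair in 185 (35.4%) of the higher and 291 (65%) of the lower genes, so for most lower genes the gap is that between the 2 fractions of the gonad.

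SOX3 and OTX2, transcription factors of the early embryo, had the largest gaps. SOX3, an HMG-box factor of the undifferentiated epiblast and the neural plate, stood at 10.20, 9.94 and 9.69 on the PGC arrays and at 10.29, 10.87 and 11.03 in blastoderm, against 3.91, 3.57 and 3.55 in CEF and 5.50, 4.88 and 4.33 in GSC. The gap between the PGC and GSC means was 5.04 (SE 0.27), a 32.9-fold difference, with a largest adjusted p of 5.7e-09 over the 4 comparisons. Every PGC and blastoderm array exceeded every somatic array, and CEF lay close to background. OTX2, a homeobox factor of the epiblast and later of the head, was at 8.01, 7.51 and 7.20 in PGC, 9.19, 9.29 and 9.59 in blastoderm, 1.96, 2.12 and 2.27 in CEF and 3.20, 2.54 and 2.85 in GSC. Its gap was 4.71 (SE 0.24, largest adjusted p 3.73e-09), and both somatic groups lay within background. SALL4, a zinc-finger factor of stem and germ cells, was at 8.11, 7.77 and 7.29 in PGC and 9.99, 10.22 and 10.27 in blastoderm, against values from 3.33 to 4.23 on the 6 somatic arrays. Its gap of 3.68 (SE 0.24) was 12.8-fold, and blastoderm exceeded PGC by 2.43 (SE 0.24, adjusted p 5e-07).

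Of 25 measured genes on the pluripotency and epiblast list, 9 (36%) were higher, 1 (4%) was lower and 15 were not called. Over all genes 4.01% were higher and 3.44% lower. The median difference between the averages of the sides was 1.23 for the list and 0.02 for all genes. Within the side, 12 of the 25 were lower in PGC than in blastoderm and 3 were higher, against 23.5% and 26.3% of all genes. LIN28A, an RNA-binding protein that blocks let-7 maturation, had a gap of 0.82 (SE 0.20, adjusted p 0.00326), from 4.99 to 5.36 in PGC and 6.17 to 6.56 in blastoderm against at most 4.51 on the somatic arrays. The lower member was KLF2, a Krüppel-like factor that is also active in vessels, with a gap of 0.84 (SE 0.27). Its call ended with an offset of 64 and when PGC replicate 1 or 2 or any 1 GSC array was left out. SOX2, the close relative of SOX3, lay within background in all 4 groups and was not called. NANOG and POU5F3 have no probe set under these symbols and were not analysed here.

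Epithelial genes formed the next group. EPCAM, an epithelial adhesion molecule, was at 10.12, 9.76 and 9.71 in PGC, 12.15, 11.98 and 11.97 in blastoderm, 1.66, 1.76 and 2.11 in CEF and from 4.86 to 6.27 in GSC. Its gap was 4.15 (SE 0.28), or 17.8-fold, and GSC exceeded CEF by 3.87 (SE 0.28, adjusted p 1.6e-08), so that the somatic side was itself split. CLDN1, a tight-junction claudin, also had GSC above CEF, with 11.80, 11.55 and 11.30 in PGC, 11.97, 12.03 and 12.06 in blastoderm, 7.82, 7.79 and 7.48 in GSC and 3.58, 3.70 and 3.75 in CEF. The gap was 3.85 (SE 0.15, largest adjusted p 8.25e-10), and blastoderm exceeded PGC by 0.47 (SE 0.15, adjusted p 0.021). ESRP2, which directs epithelial splicing, had a gap of 3.80 (SE 0.27), with 8.81 to 9.14 in PGC and 9.65 to 9.83 in blastoderm against 4.46 to 5.88 in GSC and 1.68 to 1.92 in CEF. Of 29 measured genes on the epithelial adhesion list, 6 (20.7%) were higher, 1 (3.45%) was lower and 22 were not called. Over all genes 4.01% were higher and 3.44% lower. The median difference of the averages was 1.02 for the list. Without PGC replicate 3 the lower genes were 3, and without PGC replicate 2 they were 2. Over all genes these fits called 610 and 339 lower genes, against 448 with all arrays. Between PGC and GSC alone, 7 of the list were higher and 8 lower, against 16.8% and 13.5% of all genes. Within the sides, 17 of the 29 were lower in PGC than in blastoderm and 5 were higher, against 23.5% and 26.3% of all genes. GSC exceeded CEF in 15 and fell below it in 2, against 22.3% and 20.2%. The gene lower in all 4 comparisons was JUP, plakoglobin, a component of desmosomes and adherens junctions, with a gap of 0.90 (SE 0.18). CLDN16, a claudin known from the kidney, and the connexin GJB1, which forms gap junctions, also ranked among the 25 largest gaps, at 2.53 (SE 0.23) and 3.23 (SE 0.30).

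**Figure D2:**
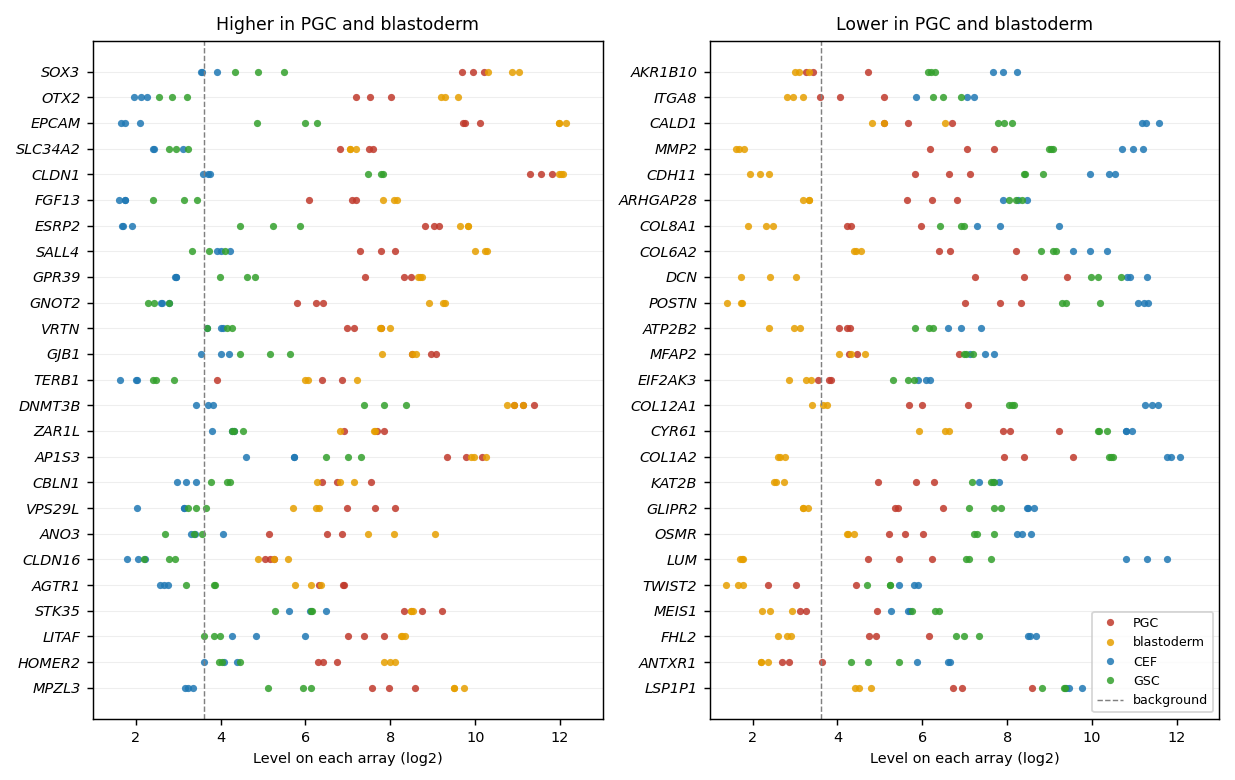
Level on each array (log2) for the 25 genes with the largest gap in each direction, by group, with 3 points per group and the background level of 3.61 as a dashed line. On the left the red and orange points of PGC and blastoderm lie to the right of the somatic points for every gene; on the right the order is turned, and PGC lie between blastoderm and the somatic groups for most genes.

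Among DNA methylation genes, DNMT3B and HELLS were called. DNMT3B, the de novo DNA methyltransferase, stood at 11.38, 11.13 and 10.92 in PGC and 11.12, 10.91 and 10.75 in blastoderm, against 8.38, 7.85 and 7.38 in GSC and 3.70, 3.82 and 3.43 in CEF. The gap was 3.06 (SE 0.22, largest adjusted p 3.47e-08). PGC and blastoderm differed by 0.22 (SE 0.22), which did not pass the test (adjusted p 0.45), while GSC exceeded CEF by 4.22 (SE 0.22). HELLS, a helicase that helps DNA methylation at repeats, was at 11.63, 11.62 and 10.79 in PGC and 11.51, 11.22 and 11.22 in blastoderm, against 8.70, 8.19 and 8.46 in CEF and 9.12, 9.25 and 9.33 in GSC. Its gap was 2.08 (SE 0.19), or 4.23-fold. These were the only 2 called of 31 measured genes on the DNA methylation and chromatin list, a share of 6.45% beside 4.01% over all genes. Without PGC replicate 3, 4 were higher and 1 was lower, while the counts over all genes rose from 522 and 448 to 749 and 610. Between PGC and GSC alone 6 of the list were higher and 6 lower, against 16.8% and 13.5% of all genes.

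Of 32 measured DNA replication genes, 6 (18.8%) were higher and none was lower, against 4.01% and 3.44% over all genes. The median difference was 0.84. Without GSC replicate 3 there were 3 higher, and over all genes the higher ones fell from 522 to 399. PGC exceeded CEF in 26 of the list and GSC in 8, against 27.7% and 16.8% of all genes. GSC exceeded CEF in 19, against 22.3%, and none was lower in these comparisons. List medians were 6.01 to 6.30 in CEF, 7.11 to 7.24 in GSC, 7.22 to 7.88 in PGC and 7.74 to 7.88 in blastoderm. ORC2 and ORC6, subunits of the origin recognition complex, had gaps of 1.79 (SE 0.26) and 1.05 (SE 0.20), and RFC3, of the clamp loader, had 1.22 (SE 0.30). In the DNA repair list 3 of 34 (8.82%) were higher, against 4.01% over all genes. These were the mismatch protein MSH6 (gap 0.91, SE 0.19), the BLM helicase (0.84, SE 0.19) and PARP1, which binds strand breaks (0.79, SE 0.23). Without PGC replicate 3 there were 7, and over all genes the higher ones rose from 522 to 749. Among nucleotide and one-carbon genes 2 of 27 (7.41%) were higher, beside 4.01% over all genes. These were the purine enzymes PPAT (gap 0.97, SE 0.22) and ADSL (0.58, SE 0.15). In oxidative phosphorylation 1 of 39 (2.56%) was higher, beside the same 4.01%. It was the complex I subunit NDUFS6 (0.39, SE 0.13), a call that ended in 9 of the alternative fits. No glycolysis gene of 22 was called in all 4 comparisons, and the median difference of that list was 0.01. Its somatic groups were split, with list medians of 10.16 to 10.34 in CEF and 7.95 to 8.53 in GSC. PGC at 9.08 to 9.54 and blastoderm at 8.74 to 8.94 lay between them.

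Germ cell genes were less evenly shared by PGC and blastoderm. DDX4, the vasa helicase, stood at 10.40, 10.48 and 9.30 in PGC, 6.65, 6.23 and 5.93 in blastoderm, 5.29, 5.12 and 5.16 in GSC and 2.03, 2.41 and 2.54 in CEF. The gap between blastoderm and GSC was 1.08 (SE 0.28, adjusted p 0.00615), and this call was lost once 64 was added to the linear values (gap 0.50). PGC exceeded blastoderm by 3.79 (SE 0.28). The receptor tyrosine kinase KIT followed the same order with a gap of 0.96 (SE 0.30, adjusted p 0.0189); its call ended with an offset of 16 (gap 0.63) or 64 (0.31) and without GSC replicate 2 or 3 or blastoderm replicate 1. DAZL was not called, since GSC, at 6.88, 6.49 and 6.53, lay above blastoderm at 5.98, 6.17 and 6.32, and DND1 was not called because blastoderm and CEF differed by only 0.25 (SE 0.19). TFAP2C, a transcription factor of germ cell specification, ran the other way within the side: it was at 5.40, 5.17 and 4.95 in PGC and 9.07, 9.49 and 9.88 in blastoderm, against at most 3.56 on the somatic arrays (gap 1.90, SE 0.25).

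Of 16 measured germ plasm and specification genes, 4 (25%) were higher in all 4 comparisons and none was lower, against 4.01% and 3.44% of all genes. With an offset of 64, 1 was higher, while over all genes the higher ones fell from 522 to 442. With the mean over probe sets 6 were higher and with array weights 5, where the counts over all genes were 522 and 848. By single comparison, 13 were higher in PGC than in CEF and 10 in PGC than in GSC, against 27.7% and 16.8% of all genes. In blastoderm 10 were higher than in CEF and 9 than in GSC, against 27.2% and 25.4%. Lower in blastoderm than in GSC were 3 of the 16, against 24.8% of all genes. The piRNA pathway, which silences transposons in the germline, had 5 of 18 (27.8%) higher and none lower, against 4.01% and 3.44% of all genes. DDX4 was counted on this list and on the germ plasm list. With an offset of 64, 2 piRNA genes were higher, while over all genes the higher ones fell from 522 to 442. In PGC 15 of the 18 exceeded CEF and 16 exceeded GSC, against 27.7% and 16.8% of all genes. In blastoderm 8 and 7 did so, against 27.2% and 25.4% of all genes. TDRD1 and TDRD7, Tudor proteins of the germ granule, had gaps of 1.84 (SE 0.41) and 1.11 (SE 0.28). TDRD1 was at 7.59, 7.63 and 5.38 in PGC, so that PGC replicate 3 lay below all 3 blastoderm arrays (6.34, 6.05 and 6.06) and above all somatic ones, of which the highest was 4.43. CPEB1, which controls translation of stored mRNA, had a gap of 1.11 (SE 0.28), which was not called with the same offset (gap 0.45).

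Of 27 measured meiosis genes 1 (3.7%) was higher, close to the 4.01% over all genes. This gene was TERB1, which attaches telomeres to the nuclear envelope in meiotic cells in mouse. It stood at 6.85, 6.40 and 3.91 in PGC, 7.22, 5.98 and 6.06 in blastoderm, 2.00, 1.62 and 2.04 in CEF and 2.90, 2.41 and 2.49 in GSC (gap 3.12, SE 0.54, adjusted p 0.000523). The spread within PGC was the widest of the 25 genes, with replicate 3 near background. Of the list, 15 of 27 genes lay within background in PGC, 19 in blastoderm, 19 in CEF and 20 in GSC. Between PGC and CEF alone 13 of the list were higher and 0 lower, against 27.7% and 22% of all genes. Between PGC and GSC alone 11 were higher and 1 lower, against 16.8% and 13.5%. ZAR1L, a relative of the maternal zygote arrest gene, was more even, at 7.84, 7.69 and 6.92 in PGC and 6.81, 7.65 and 7.61 in blastoderm against at most 4.54 on the somatic arrays (gap 2.98, SE 0.27).

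Other genes with large gaps were transporters, receptors and signalling proteins. SLC34A2, a sodium-phosphate cotransporter, stood at 7.50, 7.59 and 6.81 in PGC, 7.05, 7.20 and 7.05 in blastoderm, 3.12, 2.40 and 2.43 in CEF and 2.78, 2.94 and 3.23 in GSC. Both somatic groups lay within background, and the gap was 4.12 (SE 0.25), or 17.4-fold. It was the only called gene among 15 measured kidney tubule markers, a share of 6.67% beside 4.01% of genes higher over all genes. The summed level of that list was 10.79 to 11.64 in PGC and 8.51 to 8.64 in blastoderm, against 8.72 to 9.52 in CEF and 10.00 to 10.26 in GSC, and 9 of its 15 genes lay within background in blastoderm, where SLC34A2 was as high as in PGC. FGF13, an intracellular relative of the fibroblast growth factors, had a gap of 3.80 (SE 0.29). GPR39, a zinc-sensing receptor, had 3.60 (SE 0.27), and AGTR1, the angiotensin II receptor, had 2.44 (SE 0.24). ANO3, an anoctamin membrane protein, had 2.58 (SE 0.43).

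The remaining genes among the 25 were of mixed function. VRTN, vertnin, a factor known for vertebral number in pigs, had a gap of 3.27 (SE 0.24), and the secreted cerebellin CBLN1 one of 2.71 (SE 0.29). AP1S3, a clathrin adaptor subunit, had 2.83 (SE 0.29) and the kinase STK35 had 2.43 (SE 0.27). LITAF, a protein of late endosomes, had 2.39 (SE 0.33), HOMER2, a scaffold protein, 2.33 (SE 0.23), and the adhesion protein MPZL3 2.31 (SE 0.27). GNOT2 (3.49, SE 0.22) and VPS29L (2.65, SE 0.32) completed the set. The first gene outside it had a gap of 2.30, against 2.31 for the last inside. In all 25, no array of PGC or blastoderm overlapped a somatic array, which the choice of these genes required. In 8 of the 25 both somatic means lay within background and in 6 one did, so their folds depend on the floor of the values: with an offset of 16 the median gap of the 25 fell from 3.12 to 2.40, and 16 moved by over 1.5-fold.

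Of 58 measured extracellular matrix genes, 26 (44.8%) were lower in PGC and blastoderm, 1 (1.72%) was higher and 31 were not called. Over all genes 3.44% were lower and 4.01% higher. The median difference of the list was -2.07. COL1A1 and COL1A2 encode the chains of type I collagen, the main fibre of connective tissue. COL1A1 stood at 8.74, 8.79 and 10.29 in PGC, 3.63, 3.60 and 3.65 in blastoderm, 12.74, 12.74 and 12.44 in CEF and 11.03, 10.85 and 11.14 in GSC. The groups did not overlap, and PGC replicate 3 lay within 1 unit of each GSC array. The gap was 1.73 (SE 0.28, adjusted p 0.000369), and PGC exceeded blastoderm by 5.65 (SE 0.28). COL1A2 gave 7.93, 8.40 and 9.55 in PGC and 2.61 to 2.76 in blastoderm, against 10.40 to 10.49 in GSC and 11.76 to 12.08 in CEF (gap 1.82, SE 0.28).

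The same order of blastoderm, PGC, GSC and CEF held for the group means of the other lower matrix genes named here. POSTN, periostin, was at 7.01, 7.84 and 8.32 in PGC, 1.76, 1.39 and 1.74 in blastoderm, 9.38, 9.30 and 10.19 in GSC and 11.23, 11.08 and 11.31 in CEF (gap 1.90, SE 0.28). The proteoglycans DCN (decorin) and LUM (lumican) had gaps of 1.92 (SE 0.41) and 1.78 (SE 0.32). COL12A1, a fibril-associated collagen, had 1.85 (SE 0.26), COL6A2, of the microfibril collagen VI, 1.92 (SE 0.34), and COL8A1 1.93 (SE 0.45). MFAP2, of elastic microfibrils, had 1.86 (SE 0.46); its 3 PGC values were 4.46, 4.28 and 6.86, and its call ended without PGC replicate 1 or 2. The call of COL8A1 ended with an offset of 64. CYR61, a matricellular signal protein, was measured well above background in all groups, at 7.90 to 9.21 in PGC, 5.92 to 6.62 in blastoderm and 10.13 to 10.94 on the somatic arrays (gap 1.82, SE 0.26). ANTXR1, a collagen-binding receptor, had 1.76 (SE 0.30).

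FBLN2, fibulin 2, was the matrix gene that went the other way. It stood at 7.80, 7.60 and 6.92 in PGC, 7.58, 7.62 and 7.60 in blastoderm, 5.93, 4.84 and 5.51 in CEF and 5.68, 5.50 and 5.06 in GSC (gap 2.01, SE 0.28, adjusted p 7.2e-05). PGC and blastoderm were not called apart (0.16 lower in PGC, SE 0.28, adjusted p 0.69), and neither were GSC and CEF (adjusted p 0.98). Of its 2 probe sets, 1 was called. On the list of proteases and inhibitors, which counts SMARCB1 in place of MMP11, 7 of 26 (26.9%) were lower and 1 (3.85%) was higher. Over all genes the shares were 3.44% and 4.01%. MMP2, a gelatinase, was at 6.19, 7.06 and 7.69 in PGC and 1.62 to 1.81 in blastoderm, against 8.98 to 9.07 in GSC and 10.70 to 11.19 in CEF (gap 2.05, SE 0.27). TIMP3, an inhibitor bound to the matrix, had a gap of 1.39 (SE 0.30) and the aggrecanase ADAMTS5 one of 1.29 (SE 0.23). The higher protease ADAMTS9 had 0.70 (SE 0.18), and its call ended with the mean over its 9 probe sets.

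Genes of attachment and contraction followed the matrix. Of 30 integrin and focal adhesion genes, 11 (36.7%) were lower and none was higher, against 3.44% and 4.01% over all genes. The median difference of the list was -1.49. ITGA8, the integrin alpha 8 chain, stood at 3.58, 4.05 and 5.10 in PGC and 3.19, 2.95 and 2.82 in blastoderm, against 5.85, 7.22 and 7.05 in CEF and 6.25, 6.48 and 6.92 in GSC (gap 2.31, SE 0.37). CEF and GSC differed in this gene by less than the SE (0.15 lower in GSC, SE 0.37). ITGAV, the alpha V chain of vitronectin receptors, had a gap of 1.37 (SE 0.30) and TNS3, a tensin of focal adhesions, was 2.84-fold lower, with PGC and blastoderm means 0.00 apart. CDH11, a mesenchymal cadherin, had 2.02 (SE 0.28). Of 26 contractile cytoskeleton genes, 10 (38.5%) were lower and none was higher, against the same shares over all genes. The median difference of this list was -2.03. CALD1, caldesmon, which binds actin and myosin, was at 5.10, 5.67 and 6.70 in PGC and 6.54, 5.10 and 4.81 in blastoderm, against 7.78, 7.93 and 8.11 in GSC and 11.17, 11.58 and 11.26 in CEF (gap 2.11, SE 0.39). The LIM proteins FHL2 and FHL3 had gaps of 1.77 (SE 0.29) and 1.36 (SE 0.28).

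In the list medians the contractile genes lay at 5.73 to 6.48 in PGC and 5.86 to 6.17 in blastoderm, below GSC at 7.31 to 7.51 and far below CEF at 10.41 to 10.58. The matrix genes lay at 6.37 to 6.99 in PGC, 3.70 to 3.96 in blastoderm, 8.46 to 8.85 in CEF and 7.14 to 7.39 in GSC. PGC were thus nearer to GSC than to blastoderm in the matrix list and close to blastoderm in the contractile list, and replicate 3 had the highest PGC value in both.

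**Figure D3:**
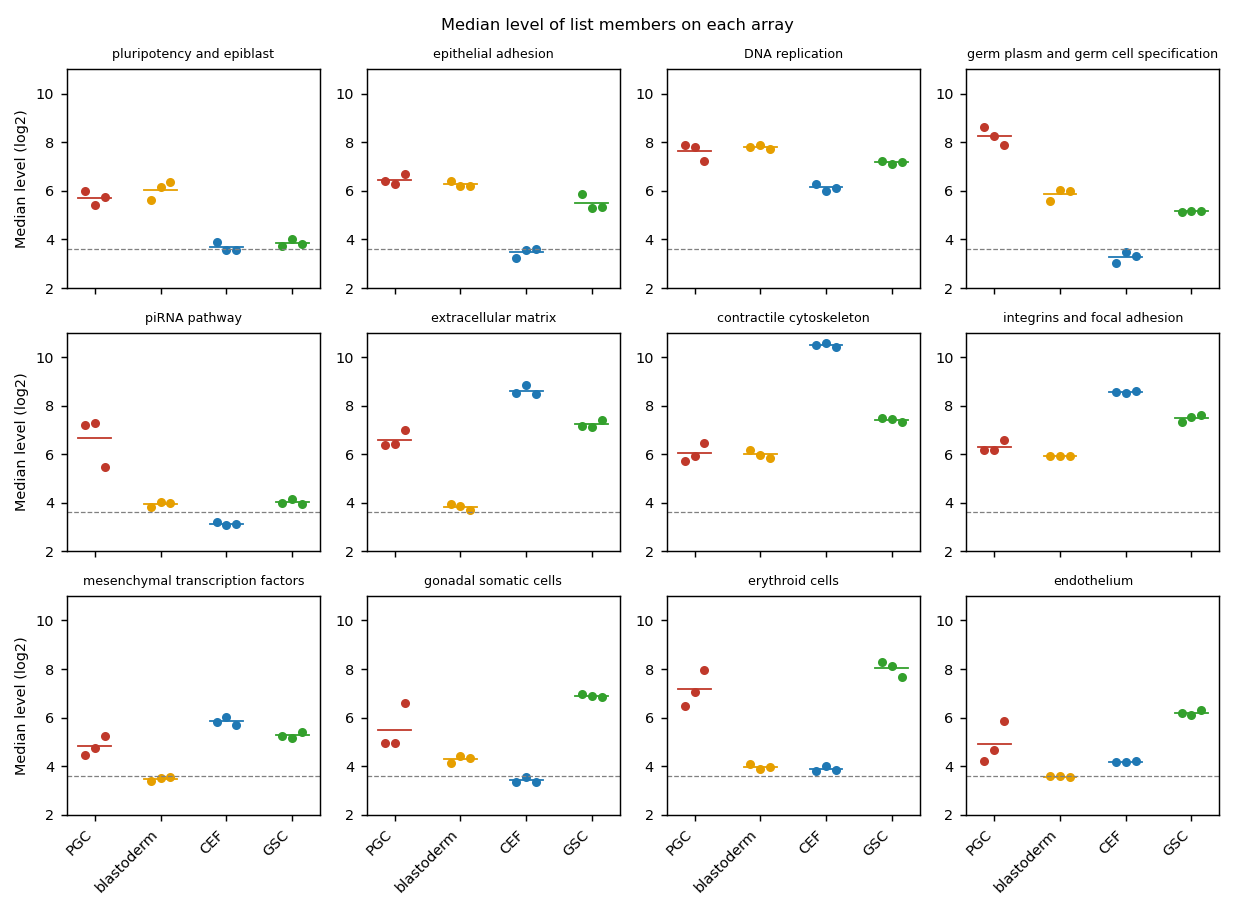
Median level (log2) of the measured members of 12 gene lists on each array, with a bar at the group average and the background of 3.61 dashed. In the pluripotency list the medians of PGC and blastoderm overlap, above CEF and GSC, though many of its genes differ between PGC and blastoderm. In the gonadal somatic, erythroid and endothelial lists PGC lie with or toward GSC, PGC replicate 3 (the rightmost red point) most of all.

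Mesenchymal transcription factors were on the same side. Of 49 measured, 11 (22.4%) were lower and none was higher, against 3.44% and 4.01% over all genes. The median difference was -0.94. Without GSC replicate 1 there were 6 lower, without PGC replicate 2 there were 7, and without PGC replicate 3 there were 14. Over all genes these fits called 342, 339 and 610 lower genes, against 448 with all arrays. TWIST2, a basic helix-loop-helix factor of mesenchyme, stood at 2.37, 3.03 and 4.44 in PGC, 1.37, 1.78 and 1.66 in blastoderm, 5.80, 5.91 and 5.44 in CEF and 5.24, 4.69 and 5.23 in GSC (gap 1.77, SE 0.37). The TALE homeobox genes MEIS1 and MEIS2, partners of HOX proteins, had gaps of 1.77 (SE 0.37) and 1.60 (SE 0.33). For MEIS1 the nearest pair was PGC and CEF, with PGC at 3.13, 3.26 and 4.94 and CEF at 5.27, 5.72 and 5.66. Among HOX genes 2 of 27 (7.41%) were lower, against 3.44% over all genes. These were HOXB3 (1.20, SE 0.30) and HOXA7 (1.05, SE 0.33), whose call ended without PGC replicate 1 or 2 or CEF replicate 2. Without PGC replicate 3 there were 7, and over all genes the lower ones rose from 448 to 610. KAT2B, a histone acetyltransferase, had a gap of 1.81 (SE 0.28).

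Enzymes, pumps and receptors filled the rest of the 25 lower genes. AKR1B10, an aldo-keto reductase, had the largest gap: it stood at 3.25, 3.43 and 4.73 in PGC, 3.32, 3.10 and 3.01 in blastoderm, 7.66, 7.90 and 8.23 in CEF and 6.20, 6.30 and 6.14 in GSC. The gap was 2.41 (SE 0.30, adjusted p 3.3e-05), 5.32-fold. PGC replicates 1 and 2 and all blastoderm arrays lay below background. EIF2AK3, the PERK kinase of the stress response in the endoplasmic reticulum, had a gap of 1.86 (SE 0.21), with 3.55 to 3.85 in PGC and 2.87 to 3.38 in blastoderm. ATP2B2, a calcium pump of the plasma membrane, had 1.89 (SE 0.24) and OSMR, the oncostatin M receptor, 1.79 (SE 0.22), with all 5 of its probe sets called. GLIPR2 (1.80, SE 0.27) and LSP1P1 (1.76, SE 0.35) completed them. The next gene had a gap of 1.74. Both PGC and blastoderm lay within background in 2 of the 25, and blastoderm alone did in 17.

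Signalling lists held at most 5 called genes in a direction. From 2.33% (ephrin, semaphorin and slit list) to 8.7% (Notch list) of their genes were higher, against 4.01% over all genes. From 4.26% (Wnt list) to 10% (receptor tyrosine kinase list) were lower, against 3.44% over all genes. The frizzled receptors of Wnt were split: FZD5 was higher (gap 1.53, SE 0.26), with 4.02 to 5.54 on the PGC and blastoderm arrays against at most 3.09, whereas FZD2 and FZD1 were lower (1.30, SE 0.34, and 1.00, SE 0.25). The call of FZD1 ended without PGC replicate 1. SFRP2, a secreted Wnt antagonist, was higher with a gap of 1.06 (SE 0.17). In all, 2 of 47 Wnt genes (4.26%) were higher and 2 (4.26%) lower, close to the shares over all genes. In the TGF-beta and BMP list of 41, the receptor BMPR1B was higher (1.09, SE 0.24), and the ligand TGFB2 (1.61, SE 0.33) and LTBP1, which anchors latent TGF-beta to the matrix (0.91, SE 0.18), were lower.

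Of 50 receptor tyrosine kinase genes and ligands, 2 were higher (FGF13 and KIT, above) and 5 were lower. The latter included DDR2, a collagen receptor (gap 1.34, SE 0.26), PDGFRB (1.05, SE 0.25) and its ligand PDGFB (1.21, SE 0.28). Without PGC replicate 3 there were 8, and over all genes the lower ones rose from 448 to 610. Of 43 ephrin, semaphorin and slit genes, SEMA3D (1.44, SE 0.26), EPHA3 (0.92, SE 0.25) and EPHB2 (0.73, SE 0.25) were lower and SEMA4D (0.66, SE 0.25) was higher. The call of SEMA4D ended with either offset and without 6 single arrays in turn, and that of EPHB2 without 6. For the Notch list of 23, the target HEY1 (0.98, SE 0.28) and the ligand DLL4 (0.46, SE 0.16) were higher, and the receptor NOTCH2 (0.94, SE 0.18) and LFNG, which modifies Notch (0.72, SE 0.22), were lower. None of these 4 kept its call in every alternative fit, and without blastoderm replicate 2 neither HEY1 nor DLL4 was called.

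In the interferon and antigen presentation list 4 of 31 (12.9%) were lower and 1 (3.23%) was higher, against 3.44% and 4.01% over all genes. The lower genes included the ubiquitin ligase TRIM25 (1.14, SE 0.26), the receptor chain IFNAR2 (0.96, SE 0.24) and EIF2AK2, the double-stranded RNA kinase PKR (0.95, SE 0.22). The higher gene was TLR3, a sensor of double-stranded RNA, but all 4 of its group means, 3.30 in PGC, 3.25 in blastoderm, 2.52 in CEF and 2.54 in GSC, lay within background, so no size is given for its difference. The calls of TRIM25 and TLR3 ended with the mean over their probe sets. In the RNA binding and splicing list 5 of 37 (13.5%) were higher and 2 (5.41%) were lower, against 4.01% and 3.44% over all genes. Most of the higher genes were also counted on the epithelial, germ plasm or pluripotency list, among them ESRP2, CPEB1 and LIN28A. Their calls are thus not separate from those of the other lists. The lower genes were MBNL1, a muscleblind splicing regulator (0.58, SE 0.14), and CELF2 (1.22, SE 0.31), whose call ended without PGC replicate 1. MBNL1 stood at 8.41 to 8.64 in PGC, 6.94 to 7.38 in blastoderm, 8.94 to 9.25 in GSC and 10.56 to 10.72 in CEF.

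**Figure D4:**
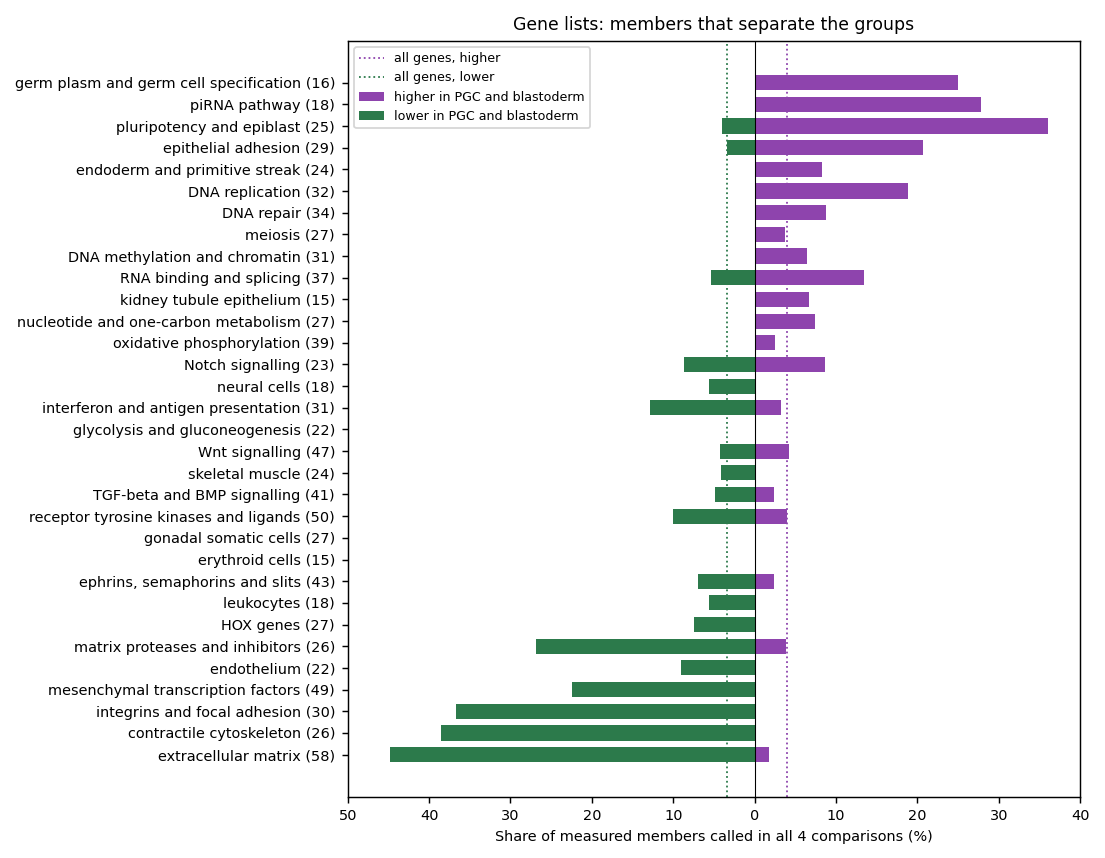
Share of the measured members of each gene list (number in brackets) that were higher (right) or lower (left) in PGC and blastoderm in all 4 comparisons, with the shares over all genes, 4.01% and 3.44%, as dotted lines. Lists are ordered by their median difference; matrix, contractile, integrin and mesenchymal factor lists reach 22.4% to 44.8% on the left, and pluripotency, piRNA, germ plasm, epithelial and replication lists 18.8% to 36% on the right.

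In the lists of other cell type markers at most 2 genes were called in a direction. Their shares reached 8.33% higher and 9.09% lower, against 4.01% and 3.44% over all genes. In the endoderm and primitive streak list 2 of 24 were higher, EOMES, a T-box factor of the streak, with 5.91 to 6.28 in PGC and 8.76 to 9.86 in blastoderm against at most 4.04 (gap 2.16, SE 0.25), and HNF4A, a nuclear receptor of endoderm (1.33, SE 0.27). In endothelial markers 2 of 22 were lower, FLI1 (1.05, SE 0.32) and VWF (0.77, SE 0.26). There were 6 without PGC replicate 3 and none without PGC replicate 1 or without CEF replicate 3. Over all genes these fits called 610, 282 and 416 lower genes, against 448 with all arrays. PTPRC, the CD45 antigen, was the only leukocyte marker of 18 that was called (lower, 1.38, SE 0.24), and its call ended with an offset of 64 (gap 0.25). It stood at 7.32 to 8.04 in CEF and 4.19 to 4.74 in GSC, and the summed level of the leukocyte list was 9.42 to 10.19 in CEF against 8.21 to 8.82 in the other groups; the part of other cells in CEF was not tested. TNNT3 of skeletal muscle (0.71, SE 0.21) and STMN2 of neurons (1.01, SE 0.34) were each the only called gene of 24 and 18, and neither call was stable. That of TNNT3 ended without CEF replicate 3 or blastoderm replicate 2, and that of STMN2 without CEF replicate 1 or 3, PGC replicate 1 or 2 or blastoderm replicate 3 and with the mean over probe sets. No gonadal somatic gene of 27 and no erythroid gene of 15 was called in all 4 comparisons.

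Erythroid RNA followed the organ and not the sides, with a summed level of 14.33 to 14.67 in PGC and 14.67 to 15.03 in GSC, against 9.85 to 10.25 in blastoderm and 9.87 to 10.09 in CEF. Common reference genes were not called. GAPDH was at 11.72 to 11.88 in PGC and 11.42 to 11.86 in blastoderm, against 12.19 to 12.26 in CEF and 11.94 to 12.13 in GSC, so its arrays did not overlap; the gap of 0.21 (SE 0.10, adjusted p 0.145) did not pass the test, except with array weights (gap 0.31). ACTB was at 11.50 to 11.67 in PGC and 11.82 to 11.84 in blastoderm, against 11.82 to 11.87 in GSC and 12.36 to 12.46 in CEF.

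Within each side the groups often differed too. Over all genes PGC exceeded blastoderm in 26.3% and fell below it in 23.5%, and GSC exceeded CEF in 22.3% and fell below it in 20.2%. Among the 522 higher genes, 158 were higher in blastoderm than in PGC, 68 were higher in PGC and 296 (56.7%) were not called apart, against 50.3% of all genes. On the somatic side 116 were higher in GSC, 25 were higher in CEF and 381 (73%) were not called apart, against 57.5% of all genes. Among the 448 lower genes, 235 were higher in PGC than in blastoderm and 8 the reverse, while 205 (45.8%) were not called apart. On the somatic side 218 were higher in CEF than in GSC and 8 the reverse, while 222 (49.6%) were not called apart.

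**Figure D5:**
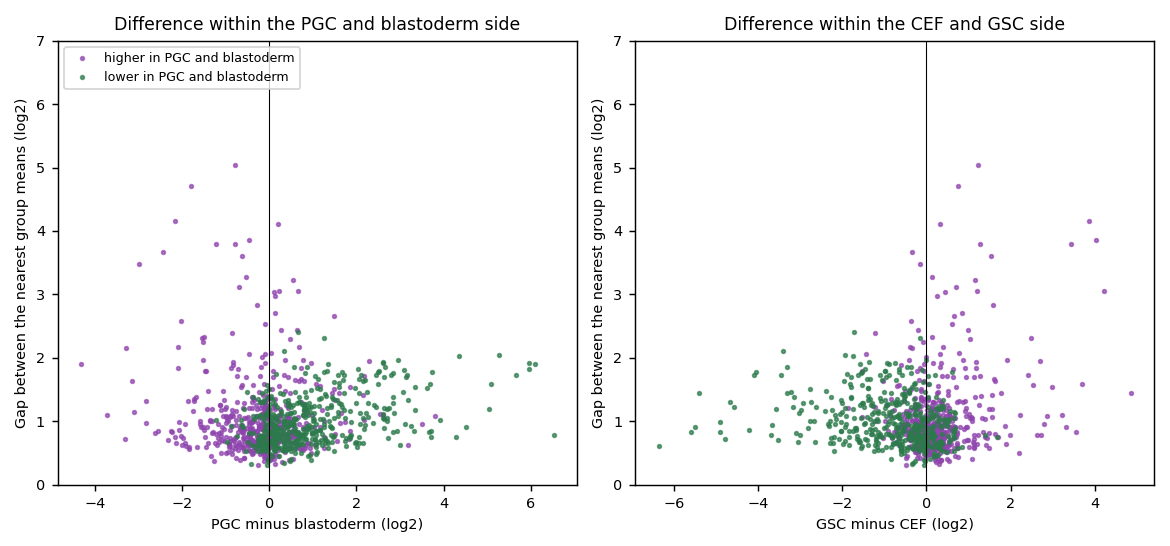
Gap of each of the 522 higher and 448 lower genes (log2) against the difference within a side, PGC minus blastoderm on the left and GSC minus CEF on the right. Green points of the lower set lie mostly right of zero on the left panel and left of zero on the right panel, while purple points of the higher set spread to both sides.

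In 215 of the higher and 109 of the lower genes neither side was called apart within itself. The share of all genes alike within both sides was not computed, so these counts cannot be read as high or low. SLC34A2, VRTN, ZAR1L, STK35, TERB1, FBLN2 and ORC2 were among the 215 higher genes. For VRTN the levels were 7.78, 7.14 and 6.98 in PGC, 7.78, 7.99 and 7.75 in blastoderm, 3.67, 4.01 and 4.05 in CEF and 3.68, 4.26 and 4.16 in GSC. STK35 stood at 9.22, 8.74 and 8.33 in PGC and 8.53, 8.49 and 8.48 in blastoderm, against 6.10, 5.61 and 6.48 in CEF and 6.14, 6.15 and 5.29 in GSC. A p that misses the threshold does not show equal levels; with 3 arrays a group the SE of these differences ran from 0.24 for VRTN to 0.54 for TERB1.

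Several probe sets measured 286 of the higher genes. A further probe set was called in the same direction in 115 of them and none in the opposite direction. Of 302 such lower genes, 124 had a further probe set called the same way and 1 had one called the opposite way. Among the higher genes named above, HNF4A and FZD5 had 1 of 3 probe sets called, and HELLS, ESRP2, CLDN16 and STK35 had 1 of 2. When all probe sets of a gene were averaged, 422 of the 522 higher and 361 of the 448 lower genes were called again. The same rule applied to the other natural division, both gonadal fractions against blastoderm and CEF, called 864 higher and 455 lower genes, with gaps of at least 2 in 137 and 21.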

How the data were processed

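The authors deposited 1 table of log2 values for 38535 probe sets on 12 arrays, made from 5 µg of total RNA per sample, per the labels' protocols. The submitters' processing notes name MAS5 without a version; the sources used here do not say how the log2 values were made and scaled, and the deposited values were kept. Control probe sets (96) and viral and reporter probe sets (746) were left out, and 37693 were tested. The platform annotation gave a single symbol for 27166, several for 177 and none for 10350. Among the probe sets of a gene, the one of highest average level stood for it (_x_at only where it had no other), which gave 13008 genes, and 40.8% of probe sets had no group mean above background.

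Differences between groups were tested in limma 3.58.1 under R 4.3.3 by lmFit on 12 arrays (8 residual degrees of freedom) and eBayes with an intensity trend, two-sided, with Benjamini-Hochberg adjustment over all probe sets of a comparison. A gene was called in all 4 comparisons where each adjusted p lay below 0.05 with the same sign; the adjusted p printed beside a gap is the largest of the 4. The SE of a gap is that of the fitted difference between its nearest pair. It rests on 1 estimate of spread shared by the 4 groups, so it is not the spread of the groups compared. For TERB1, with an SD of 1.59 in PGC and 0.23 in CEF, it does not show how widely PGC spread. Lists are described by counts and by the median difference of the side averages. A list gene absent under its own symbol was matched through a synonym held by a single gene. This counted some other genes in place of the listed ones, such as SMARCB1 for MMP11, ALAS1 for ALAS2, KRT24 for KRT19 and PLXNB3 for PLXNB1. None of these was called in all 4 comparisons. The fit was also run on simulated data, with independent noise and the spreads shuffled among probe sets. That run checked the code and not the error rate in these data. Python 3.11.15 made the summaries.

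Named are the 25 genes with the largest gap in each direction among called genes with an assigned symbol and no overlap between arrays, up to 3 called members per list and direction, DDX4, DAZL, KIT, LIN28A, SOX2, SOX3, NANOG, POU5F3, DNMT3B, COL1A1, COL1A2, GAPDH and ACTB. Genes that check the labels were added. The groups, the lists and this rule were chosen with earlier results of these data known. Replicate numbers were not used to pair samples in the main fit. Deviations from group means correlated at -0.14 to 0.18 over 18 pairs of arrays with the same number, 7 of them over 0.1. The highest was that of PGC and GSC replicate 1. Correlations this weak cannot show whether PGC and GSC samples of the same number came from the same gonads. Alternatives were array weights, a robust prior or no trend in limma, a replicate block, median centring, quantile normalization, offsets of 16 and 64 added to linear values, a filter on low values, a 2-fold minimum, the largest p adjusted, the mean over probe sets, and each array left out. Counts of list members under these settings were added after seeing the data.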

Additional observations from a re-analysis of the deposited data

How the results depend on the processing

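With all arrays in the fit, the counts of 522 higher and 448 lower genes moved by over 1.5-fold, in one or both directions, under 3 settings: array weights gave 848 and 688, a minimum change of 2-fold gave 191 and 194, and adjusting the largest of the 4 p-values gave 248 and 231. With single arrays left out the counts ran from 380 to 749 and from 282 to 610, lowest without PGC replicate 1 and highest without PGC replicate 3 for both, and the 282 lower genes were the one count among these that moved by over 1.5-fold. The replicate block gave 541 and 451, of which 509 and 436 were shared with the fit without it, and it ended no call of a named gene. Under the other settings they ran from 442 (offset of 64) to 568 (filter on low values) and from 382 (offset of 64) to 478 (filter). Of 111 named genes that were called, 86 were called under each of the 22 alternatives fitted per gene, and all 111 without PGC replicate 3. With the mean over probe sets the gap of TRIM25 turned to -0.06 and that of NOTCH2 to -0.07. An offset of 64 lowered the median gap of the 25 leading higher genes from 3.12 to 1.48 and that of the 25 lower genes from 1.86 to 1.06, since low values are raised by construction. Called members of the germ plasm list fell from 4 to 1 and of the piRNA list from 5 to 2 with that offset, while 20 to 28 members of the matrix list were lower with single arrays left out and 23 to 28 under the other settings. Causes of the other shifts were not tested. With 3 arrays a group, the number of arrays limits the precision, and in 98 higher and 54 lower genes both low groups lay within background, where a fold has no firm size.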

Other observations

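The genes in this paragraph and the next lie outside the naming rule and were chosen after their values were seen. Regulators of germ cell and early embryonic transcription were among the higher genes. NR6A1, the germ cell nuclear factor, was at 8.49 ± 0.38 in PGC and 8.40 ± 0.29 in blastoderm, against 5.76 ± 0.29 in CEF and 6.70 ± 0.24 in GSC (mean log2 ± SD, n = 3; gap 1.70, SE 0.23). TAF4B, a variant subunit of the general factor TFIID that is enriched in gonads, was at 7.41 ± 0.76 and 8.13 ± 0.34, against 4.95 ± 0.48 and 5.59 ± 0.21, and all 3 of its probe sets were called. GDF3, a ligand of the TGF-beta family, had a gap of 1.70 (SE 0.25). The cadherin CDH1 was higher in PGC (8.78 ± 0.13) than in blastoderm (6.93 ± 0.07), with 5.39 ± 0.19 in GSC and CEF within background. CXCR4, the chemokine receptor that guides germ cells to the gonad, was called with a gap of 1.64 (SE 0.47), but its arrays overlapped, since CEF spread widely (4.07 ± 1.16). VTN, vitronectin, a ligand of the integrins with an alpha V chain, was at 8.01 ± 0.28 in PGC and 7.24 ± 0.25 in blastoderm, against 5.27 ± 0.07 in GSC, whereas ITGAV itself was lower in PGC and blastoderm.

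On the lower side, RB1, the retinoblastoma protein that restrains the cell cycle, stood at 6.14 ± 0.54 in PGC and 6.16 ± 0.20 in blastoderm, against 7.55 ± 0.09 in CEF and 7.59 ± 0.11 in GSC (gap 1.39, SE 0.23), with 2 of its 3 probe sets called. The angiopoietins ANGPT1 and ANGPT2, vessel growth factors, had gaps of 1.33 (SE 0.36) and 1.29 (SE 0.25). LRRC32, which presents latent TGF-beta on the cell surface, was at 9.74 ± 0.10 in CEF, 5.65 ± 0.24 in GSC, 3.92 ± 0.51 in PGC and 2.20 ± 0.12 in blastoderm (gap 1.73, SE 0.24). TWIST1 was at 8.72 ± 0.26 in CEF but 3.82 ± 0.53 in GSC, near the background, so its call (gap 0.99, SE 0.26) rests on a low level there.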
